A study of Rattus norvegicus with 8 samples.

Results

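Of the 31699 rows in the gene table, 10 carry the symbol of a Wnt ligand (Wnt5a, Wnt5b), a secreted Wnt antagonist (Sfrp1, Sfrp2, Sfrp4, Dkk2, Dkk3), a Wnt receptor (Fzd1, Ror2) or the feedback target Axin2, and these 10 genes were described by matching their symbols. Annulus fibrosus cells (AFCs) of Sprague Dawley rats, the cells of the disc's outer fibrous ring, were compared between 4 samples with the label Lv-Ctrl and 4 with the label Lv-Piezo1. Both groups were under cyclic mechanical stretch (CMS), which the study's methods give as 0.5 Hz for 36 h, with 20% elongation in the experiments that follow its dose series. The Lv-Ctrl group received the vector pLVX-shRNA-Puro and the Lv-Piezo1 group the same vector with a short hairpin RNA against Piezo1, at an MOI of 20 for 24 h. The AFCs were of the third generation in culture, each isolation pooled the tissue of 8 rats, and the methods give the rats of the study as males 3 months old, in the account of its surgical model. There was no unstretched and no uninfected group, so each difference given here is between the 2 vectors under stretch.

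Wnt proteins are secreted, lipid-modified ligands that bind Frizzled receptors. With the co-receptors LRP5 and LRP6 they stabilise β-catenin, which acts with TCF and LEF factors to switch on targets such as Axin2, a scaffold of the complex that degrades β-catenin. Wnt5a and Wnt5b act largely without β-catenin, through receptors that include the tyrosine kinase Ror2. Secreted Frizzled-related proteins (the Sfrp genes and Frzb) bind Wnt ligands. Dickkopf proteins (the Dkk genes) such as Dkk2 bind LRP5 and LRP6, while the part of Dkk3 in Wnt inhibition is less settled. The β-catenin branch is known to act in the upkeep of the intervertebral disc.

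The values are TPM, which is scaled for transcript length, so that levels of different genes can be set side by side, but which keeps no sequencing depth. The depth is therefore unknown, and the error of a value is the spread of the 4 samples of its group. For the 13103 genes that averaged 1 TPM or more, samples correlated at 0.973 to 0.983 inside each group and at 0.939 to 0.945 across the groups. Piezo1 itself was higher in the samples labelled Lv-Piezo1, at 38.1, 37.7, 40.2 and 41.4 TPM against 31.1, 33.0, 26.7 and 29.5 TPM in those labelled Lv-Ctrl, a log2 fold change of 0.38 (adjusted p = 8.6e-04 from limma). The study reports that it verified the effectiveness of this short hairpin RNA. As the RNA level here goes against a knockdown, groups are named by their labels, and higher or lower always refers to the Lv-Piezo1 label. Of 10 annulus and fibroblast markers 9 passed the limit of 1 TPM, Dcn and Pdgfra were called lower, and the tendon marker Tnmd was at or near 0, with sums over the list of 7412 to 8329 TPM in the Lv-Ctrl group and 10680 to 11420 TPM in the Lv-Piezo1 group. The 12 smooth muscle and pericyte markers, with 6 called higher (Acta2 and Tagln among them) and 2 lower (Kcnj8 and Abcc9), summed to 827.8 to 863.2 TPM and 4604 to 4773 TPM. Endothelial markers (6 genes) summed to at most 0.62 TPM in any sample. The 6 macrophage and leukocyte markers summed to 0.64 to 2.30 TPM and 11.7 to 13.9 TPM, with Cd68 called higher, Adgre1 listed at 0 throughout and Ptprc at no more than 0.01 TPM. The 4 notochord and nucleus pulposus markers in the table summed to 5.78 to 6.68 TPM and 22.1 to 26.7 TPM, with Tbxt listed at 0 in every sample and Cd24 called higher, and the 7 chondrocyte-like markers to 43.1 to 52.3 TPM and 61.4 to 65.0 TPM, with Comp called higher. The part of these marker shifts in the results on the Wnt genes was not tested.

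Among the 10 genes, Wnt5a rose and Sfrp2 fell. A gene was called at a Benjamini-Hochberg adjusted p below 0.05 from limma and a change of at least 1 in log2(TPM + 1), and by this rule 7.67% of the 13103 genes tested were called, 4.91% higher and 2.76% lower. Sfrp1 and Dkk2 had a mean below 1 TPM and were not tested, so 2 of the 8 members tested were called. By the adjusted p alone 7 of these 8 passed, 3 higher and 4 lower, where 58.2% of all genes tested passed (41.9% higher and 16.3% lower). The groups did not overlap in 9 of the 10 members, 5 higher and 4 lower, and in 7 of the 8 tested against 54.2% of all genes tested (39.8% higher and 14.5% lower). The median log2 fold change was -0.35 over the 8 members and 0.14 over all genes tested. Because the samples are bulk RNA, fewer cells of a type and less RNA per cell cannot be told apart in any of these values.

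**Figure D1:**
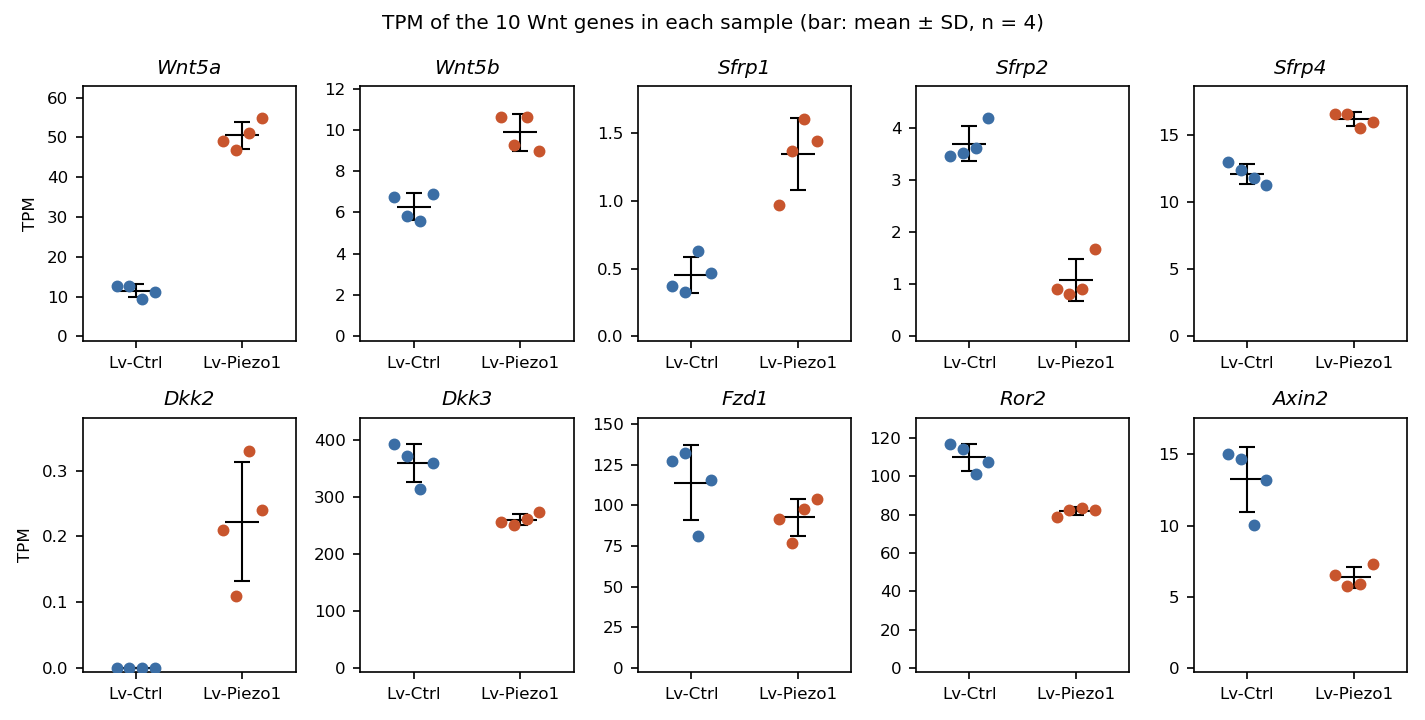
TPM of the 10 Wnt genes, 1 panel per gene, with each point 1 sample labelled Lv-Ctrl (blue) or Lv-Piezo1 (orange), the bars giving the mean ± SD (n = 4), and each vertical axis starting at 0 on its own scale. Wnt5a lies at 9.44 to 12.8 TPM in the Lv-Ctrl group and 46.8 to 54.9 TPM in the Lv-Piezo1 group, and Fzd1 is the gene whose groups overlap.

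Wnt5a, the ligand known for β-catenin-independent signaling, had the largest fitted change of the 8 members tested. The Lv-Ctrl replicates 1 to 4 measured 12.8, 12.7, 9.44 and 11.2 TPM (mean 11.5 ± 1.57, SD, n = 4). The Lv-Piezo1 replicates 1 to 4 measured 49.2, 46.8, 51.2 and 54.9 TPM (mean 50.5 ± 3.44, SD, n = 4). All samples labelled Lv-Piezo1 were far above all those labelled Lv-Ctrl, and the ratio of the means was 4.39. The log2 fold change was 2.05 (standard error 0.09, 95% interval 1.84 to 2.26, adjusted p = 1.9e-07 from limma). Wnt5b, its close paralog with a related role, measured 6.74, 5.84, 5.61 and 6.91 TPM in the Lv-Ctrl group and 10.6, 9.28, 10.6 and 8.96 TPM in the Lv-Piezo1 group. Its groups did not overlap either, but its log2 fold change of 0.58 (95% interval 0.39 to 0.77, adjusted p = 3.3e-04 from limma) lay under the fold threshold. The ratio of both ligands within a sample is not altered by a single scaling factor per sample, and its ranges did not overlap between the groups. Wnt5a over Wnt5b was 1.62 to 2.17 in the Lv-Ctrl group and 4.62 to 6.13 in the Lv-Piezo1 group.

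Wnt5a and Wnt5b were also the ligands with the highest TPM. Of the 19 Wnt ligand genes, 5 passed the limit of 1 TPM, and the other 3 were Wnt4, Wnt9a and Wnt11, with log2 fold changes of 0.44, 0.39 and 0.35 under the fold threshold. By the adjusted p alone 4 of the 5 ligands were higher and 0 lower, where 41.9% of all genes tested were higher, and 3 and 2 were higher after median-ratio scaling and quantile normalization. The 19 genes summed to 24.02 ± 2.18 TPM in the Lv-Ctrl group and 68.9 ± 3.35 TPM in the Lv-Piezo1 group (SD, n = 4 each). Wnt5a held 45.2% to 51.0% of this sum in the samples labelled Lv-Ctrl and 71.4% to 75.7% in those labelled Lv-Piezo1. Wnt5b, although its own TPM was higher, went from 23.5% to 28.3% of the sum down to 12.4% to 15.4%. Porcn, the enzyme that attaches the lipid to Wnt proteins, was the more abundant of the 2 secretion genes and measured 116 ± 3.41 and 91.3 ± 2.87 TPM (SD over the 4 samples of each group), with a log2 fold change of -0.35 under the fold threshold (adjusted p = 3.4e-05 from limma).

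**Figure D2:**
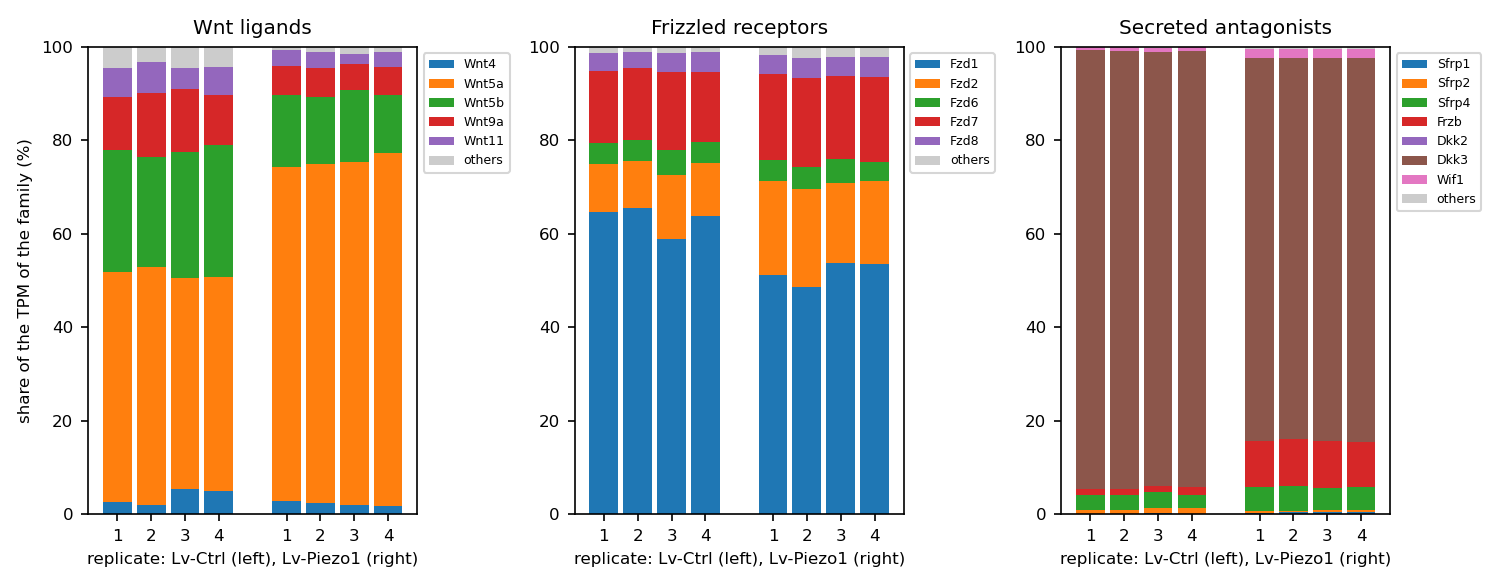
Share of the summed TPM of each family (vertical axis, percent) held by each gene in each sample, with replicates 1 to 4 labelled Lv-Ctrl on the left and Lv-Piezo1 on the right of each panel; grey is the sum of the genes not drawn. Wnt5a takes 71.4% to 75.7% of the ligand TPM in the Lv-Piezo1 group, Fzd1 takes 58.9% to 65.5% of the Frizzled TPM in the Lv-Ctrl group and 48.7% to 53.7% in the Lv-Piezo1 group, and Dkk3 holds most of the antagonist TPM in every sample.

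The 3 secreted Frizzled-related members differed in direction. For Sfrp2, the Lv-Ctrl replicates 1 to 4 measured 3.46, 3.51, 3.61 and 4.19 TPM (mean 3.69 ± 0.338, SD, n = 4) and the Lv-Piezo1 replicates 0.91, 0.81, 0.90 and 1.68 TPM (mean 1.08 ± 0.406, SD, n = 4). The groups were well apart although replicate 4 labelled Lv-Piezo1 stood above its group. Sfrp2 fell by 1.19 on the log2 scale (standard error 0.14, 95% interval -1.51 to -0.88, adjusted p = 8.1e-05 from limma), and the mean of the Lv-Ctrl group was 3.43 times that of the Lv-Piezo1 group. Sfrp4 went the other way, from 13.0, 12.4, 11.8 and 11.3 TPM to 16.6, 16.6, 15.6 and 16 TPM, a log2 fold change of 0.39 (95% interval 0.27 to 0.51, adjusted p = 2.2e-04 from limma) under the fold threshold. Sfrp1 was low in all samples, at 0.37, 0.33, 0.63 and 0.47 TPM in the Lv-Ctrl group and 0.97, 1.37, 1.60 and 1.44 TPM in the Lv-Piezo1 group. It had no limma fit, its difference in mean log2(TPM + 1) was 0.69, and its groups did not overlap (two-sided test by exact permutation, p = 0.029, below which 4 samples against 4 cannot go). Sfrp2 stood above Sfrp1 in each sample labelled Lv-Ctrl, while the levels of both overlapped in those labelled Lv-Piezo1. Sfrp2 over Sfrp1 was 5.73 to 10.6 within the samples labelled Lv-Ctrl and 0.563 to 1.17 within those labelled Lv-Piezo1.

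The Dickkopf members spanned the highest and the lowest level of the 10 genes. Dkk3, a divergent member of the family whose part in Wnt inhibition is less settled, measured 392, 372, 314 and 359 TPM in the Lv-Ctrl group and 256, 250.9, 261 and 273 TPM in the Lv-Piezo1 group. Every sample labelled Lv-Piezo1 was below every sample labelled Lv-Ctrl, with a log2 fold change of -0.46 (95% interval -0.60 to -0.31, adjusted p = 2.5e-04 from limma) that did not reach the fold threshold. Dkk2, which binds the LRP co-receptors, was listed at 0 in all 4 samples labelled Lv-Ctrl and at 0.21, 0.11, 0.33 and 0.24 TPM in those labelled Lv-Piezo1. No fold is given against a group at 0, and these values are near the bottom of the table's range.

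Of 13 secreted antagonist genes listed 12 were in the table, and Dkk1 is not among these 12, so the sums cover the 12 only. Dkk3 made up 92.9% to 93.8% of the summed TPM of the 12 genes in the Lv-Ctrl group and 81.5% to 82.2% in the Lv-Piezo1 group. The sum of the other 11 genes was 24.9 ± 0.763 TPM and 57.6 ± 1.06 TPM (SD, n = 4 each). Most of that difference lay in Frzb, a further secreted Frizzled-related gene that is not among the 10. Frzb measured 6.04, 5.42, 4.37 and 6 TPM in the Lv-Ctrl group and 30.7, 30.7, 31.7 and 31.9 TPM in the Lv-Piezo1 group, and it rose by a log2 fold change of 2.33 (95% interval 2.14 to 2.52, adjusted p = 4.7e-08 from limma). Among the antagonists a called rise of Frzb therefore stood beside a called fall of Sfrp2, with Frzb over Sfrp4 at 0.371 to 0.533 in the samples labelled Lv-Ctrl and 1.85 to 2.04 in those labelled Lv-Piezo1.

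Both receptors were abundant, and Ror2 was lower in the Lv-Piezo1 group while Fzd1 did not pass the test. Ror2, the tyrosine kinase that binds Wnt5a, measured 117, 114, 101 and 108 TPM in the Lv-Ctrl group and 79.0, 82.7, 83.5 and 82.5 TPM in the Lv-Piezo1 group. The groups did not overlap, and the log2 fold change of -0.42 (95% interval -0.53 to -0.31, adjusted p = 7.0e-05 from limma) was under the fold threshold. Set against its ligand, Ror2 over Wnt5a was 9.02 to 10.7 within the samples labelled Lv-Ctrl and 1.5 to 1.77 within those labelled Lv-Piezo1. Ptk7, a further co-receptor of the β-catenin-independent branch, measured 54.9 ± 3.69 TPM and 88.0 ± 2.37 TPM (SD, n = 4 each). Ror2 was 1.94 to 2.09 times Ptk7 in the Lv-Ctrl group and 0.911 to 0.949 times in the Lv-Piezo1 group. Fzd1, a Frizzled receptor, measured 128, 132, 81.1 and 116 TPM in the Lv-Ctrl group and 91.7, 77.0, 97.8 and 104 TPM in the Lv-Piezo1 group. Its groups overlapped, with a log2 fold change of -0.28 and a 95% interval of -0.63 to 0.07 (adjusted p = 0.15 from limma; two-sided test by exact permutation, p = 0.17). Without replicate 3 labelled Lv-Ctrl, the lowest of its group, the log2 fold change was -0.44 (adjusted p = 0.0055 from limma), and after median-ratio scaling it was also -0.44 (adjusted p = 0.019 from limma). Fzd1 did not pass without any other single sample (adjusted p = 0.12 to 0.32 from limma). Nor did it pass after quantile normalization, at -0.35 (adjusted p = 0.080 from limma).

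Fzd1 was the Frizzled gene with the highest TPM in every sample. Its share of the TPM of the 10 Frizzled genes was 58.9% to 65.5% in the Lv-Ctrl group and 48.7% to 53.7% in the Lv-Piezo1 group, without overlap. Fzd2 held 10.2% to 13.8% and 17.3% to 20.8%. Of the 10 genes 5 were tested, and by the adjusted p alone 2 were higher and 0 lower. Of all genes tested, 41.9% were higher and 16.3% lower, so 2 of 5 higher is near that share. After median-ratio scaling and also after quantile normalization, 1 Frizzled gene was higher and 1 lower. The lower gene was Fzd1 after median-ratio scaling, but it was another gene after quantile normalization, where Fzd1 did not pass. The summed level of the family was nearly the same, at 179 ± 29.1 TPM and 178 ± 15.1 TPM (SD, n = 4 each). Within the samples, Fzd1 was 4.27 to 6.41 times Fzd2 in the Lv-Ctrl group and 2.34 to 3.10 times in the Lv-Piezo1 group.

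Axin2, the feedback target that is widely read as a marker of β-catenin activity, was at 15, 14.7, 10.1 and 13.2 TPM in the Lv-Ctrl replicates 1 to 4 (mean 13.2 ± 2.26, SD, n = 4). In the Lv-Piezo1 replicates it was at 6.56, 5.74, 5.86 and 7.33 TPM (mean 6.37 ± 0.734, SD, n = 4). The groups did not overlap, and the mean of the Lv-Ctrl group was 2.08 times that of the Lv-Piezo1 group. On the log2(TPM + 1) scale, which understates the change of low genes, the difference was -0.94 (standard error 0.12, 95% interval -1.22 to -0.66, adjusted p = 1.7e-04 from limma), just short of the fold threshold. Axin2 was called with a pseudocount of 0.1 (-1.03), with median-ratio scaling (-1.09), with quantile normalization (-1.13), without replicate 3 labelled Lv-Ctrl (-1.06) and without replicate 4 labelled Lv-Piezo1 (-1.0). Its paralog Axin1, which is not a feedback target, measured 18.8 ± 1.39 TPM and 19.0 ± 1.17 TPM (SD, n = 4 each). Axin2 over Axin1 was 0.588 to 0.800 in the samples labelled Lv-Ctrl and 0.285 to 0.370 in those labelled Lv-Piezo1.

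RefSeq promoter windows of assembly GRCr8, from 250 bases before to 50 after the annotated start, were found for 5 of the 10 members (Wnt5a, Sfrp2, Axin2, Fzd1 and Ror2). They were searched on both strands for the TCF and LEF core in the form CTTTGAA, the form CTTTGAT, the form CTTTGTA or the form CTTTGTT, of which at least 1 is present in 17.1% of the 33469 windows of this length and 2 or more in 2.12%. Axin2 held 2 matches, CTTTGAA at 232 bases and CTTTGAT at 132 bases before the start, both on the strand of the gene, and the windows of the other 4 members held none. The windows of the called genes Wnt5a (chr16:3703415-3703714, plus strand) and Sfrp2 (chr2:171387286-171387585, plus strand) and of Axin2 (chr10:94398535-94398834, plus strand) are printed 5′ to 3′ to show the window with the core beside those without it, with the matches in capitals. A match is a description of letters and not a measured binding site.
Axin2: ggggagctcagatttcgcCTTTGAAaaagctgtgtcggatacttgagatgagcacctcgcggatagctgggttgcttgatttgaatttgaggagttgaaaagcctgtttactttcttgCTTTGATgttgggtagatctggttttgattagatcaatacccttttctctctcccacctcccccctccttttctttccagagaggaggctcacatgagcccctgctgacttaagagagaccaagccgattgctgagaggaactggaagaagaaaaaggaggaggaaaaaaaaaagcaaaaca
Wnt5a: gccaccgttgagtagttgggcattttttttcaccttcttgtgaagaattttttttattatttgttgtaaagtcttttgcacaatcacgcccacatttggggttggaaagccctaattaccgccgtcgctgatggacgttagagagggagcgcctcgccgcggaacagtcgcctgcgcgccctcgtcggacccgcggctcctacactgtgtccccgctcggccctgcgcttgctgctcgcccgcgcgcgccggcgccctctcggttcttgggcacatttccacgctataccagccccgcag
Sfrp2: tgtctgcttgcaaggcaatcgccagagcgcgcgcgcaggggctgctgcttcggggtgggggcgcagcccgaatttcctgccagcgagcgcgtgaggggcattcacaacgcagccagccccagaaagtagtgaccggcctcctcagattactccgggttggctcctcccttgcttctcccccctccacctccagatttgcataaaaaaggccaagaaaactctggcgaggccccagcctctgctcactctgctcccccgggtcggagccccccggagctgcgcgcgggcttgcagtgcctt
The Axin2 window was 45.7% G or C, those of Wnt5a and Sfrp2 were 58.3% and 65.0%, and the median over all windows was 51.7%.

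By level, the 10 genes kept much of their order in both groups. In the Lv-Ctrl group Dkk3 stood first, followed by Fzd1 and Ror2, which overlapped, and then by Axin2, Sfrp4 and Wnt5a, whose neighbours in this order overlapped. Wnt5b, Sfrp2, Sfrp1 and Dkk2 followed, each apart from the gene above it. In the Lv-Piezo1 group Dkk3, Fzd1 and Ror2 kept their places, with Fzd1 and Ror2 again overlapping. Wnt5a came next and stood clear of Sfrp4 below it, Axin2 lay below Wnt5b, and Sfrp1 and Sfrp2 overlapped. Replicate 3 labelled Lv-Ctrl was the lowest of its group in 6 of the 10 members (Wnt5a, Wnt5b, Dkk3, Fzd1, Ror2 and Axin2) and the highest in Sfrp1. The share over all genes was not computed, so this count is not read as a trait of the members. The same sample had the fewest rows above 0 of all samples (16645, against 16725 to 17657).

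The other genes of the pathway form a list of 91 genes present in the table. Of the 57 tested, Frzb was called higher and Apcdd1 lower, where 7.67% of all genes tested were called, and 28 were higher and 7 lower by the adjusted p alone (61.4% of the 57, near the 58.2% of all genes tested). Their median log2 fold change was 0.23, beside 0.14 over all genes tested. Apcdd1, a membrane inhibitor and target of Wnt signaling, fell, from 8.40, 8.47, 7.28 and 7.81 TPM to 2.46, 2.04, 2.65 and 1.88 TPM, a log2 fold change of -1.47 (95% interval -1.68 to -1.26, adjusted p = 1.8e-06 from limma). Ctnnb1, which encodes β-catenin and was the most abundant of the 24 cytoplasmic genes, measured 134 ± 13.1 TPM and 134 ± 7.19 TPM (SD, n = 4 each; log2 fold change 0.00, 95% interval -0.17 to 0.16). Ryk, the most abundant co-receptor, measured 125 ± 5.33 TPM and 130 ± 7.08 TPM (SD, n = 4 each; log2 fold change 0.06, 95% interval -0.04 to 0.17).

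**Figure D3:**
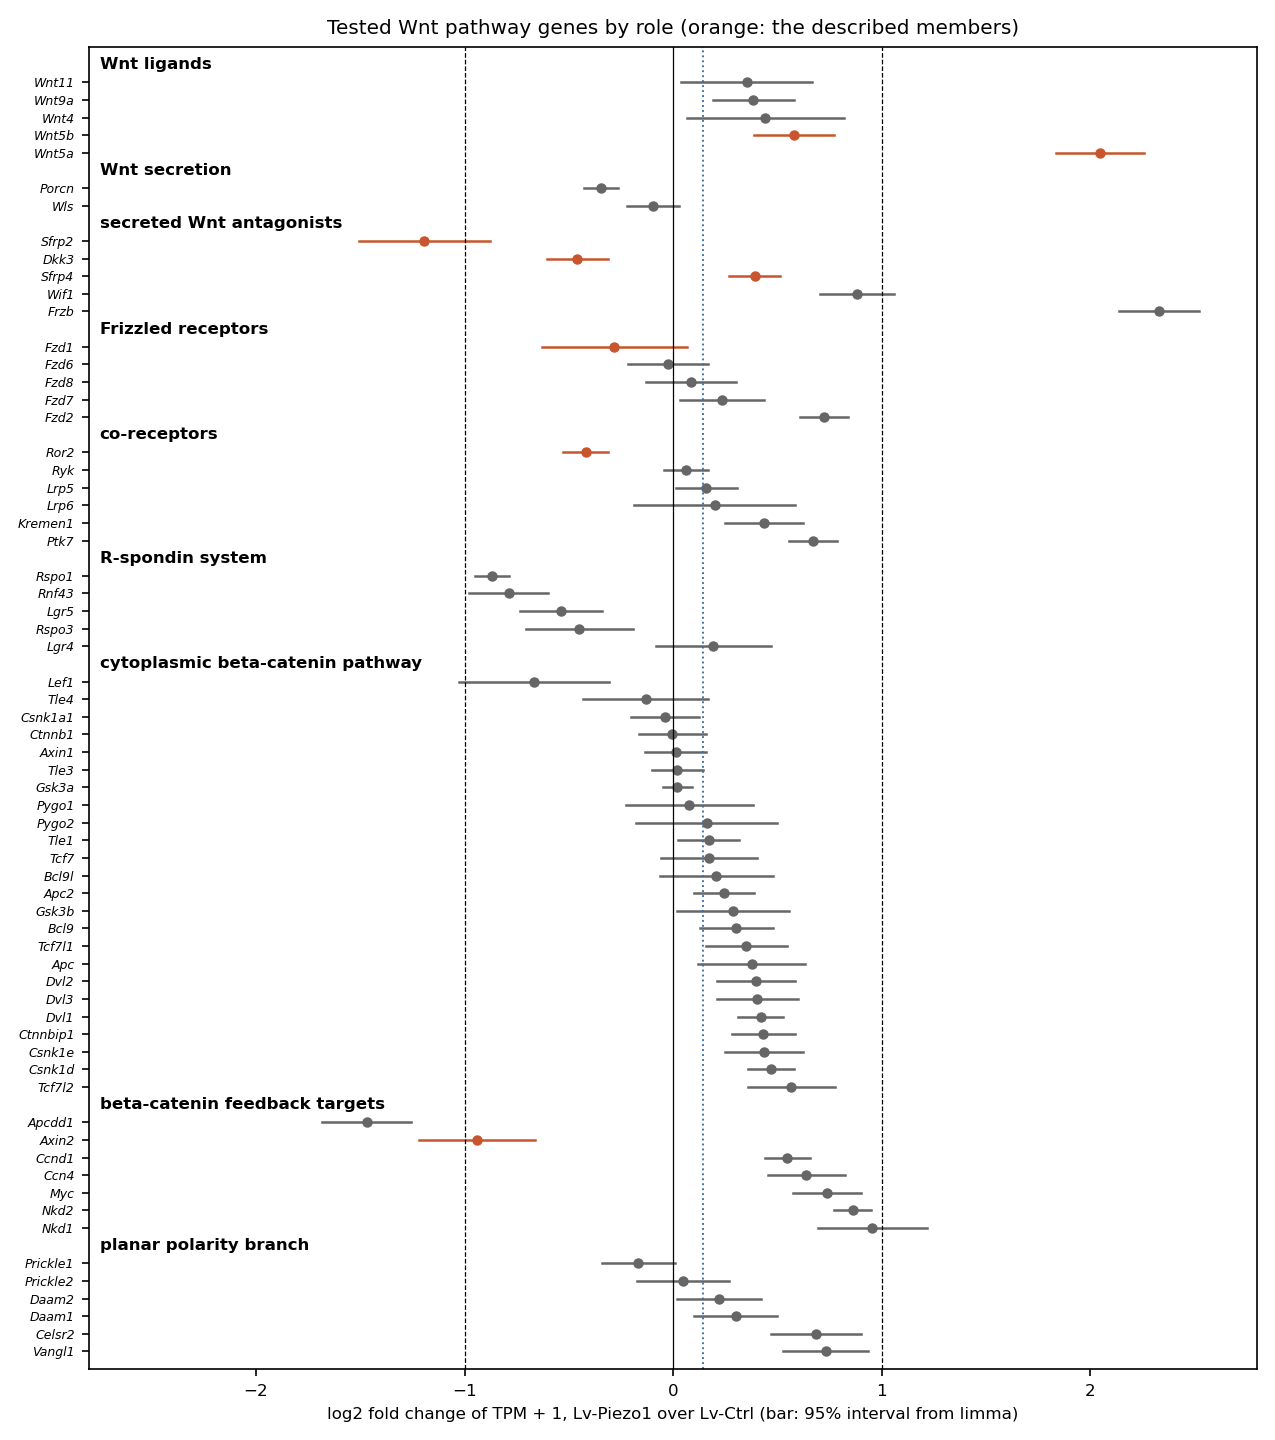
Log2 fold change of TPM + 1 (horizontal axis, Lv-Piezo1 over Lv-Ctrl) of the tested Wnt pathway genes, grouped by role, with 95% intervals from limma; members are orange, dashed lines mark -1 and 1 and the dotted line the median of all genes tested (0.14). Wnt5a, Frzb, Sfrp2 and Apcdd1 lie beyond the dashed lines, and each gene is drawn once under its first role.

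The β-catenin feedback targets, the group of Axin2, were split. Of 15 genes in this list 11 were tested. By the adjusted p alone 5 were higher and 5 lower, and both scalings gave the same counts. Of all genes tested, 41.9% were higher and 16.3% lower without scaling. Of the 11 genes 90.9% passed, against 58.2% of all genes tested. Ccnd1, a cell cycle cyclin and the most abundant of them, measured 144 ± 9.67 TPM and 210 ± 4.53 TPM (SD over 4 samples each), with a log2 fold change of 0.55 under the fold threshold. The next genes were chosen after their values were seen, and none was called as reported. With a pseudocount of 0.1, Nkd1 (1.77), Rnf43 (-1.01) and Lef1 (-1.25) were called, and Rnf43 was also called with quantile normalization. Nkd1, low in both groups, had the largest rise of the list and measured 0.48 ± 0.0693 TPM and 1.88 ± 0.245 TPM (log2 fold change 0.96). Nkd2, a feedback inhibitor that binds Dishevelled, measured 81.9 ± 3.98 TPM and 150 ± 2.69 TPM (log2 fold change 0.86). Rnf43, a ubiquitin ligase that removes Frizzled receptors from the membrane, measured 4.51 ± 0.306 TPM and 2.19 ± 0.225 TPM (log2 fold change -0.79). Lef1, a β-catenin partner, measured 1.53 ± 0.439 TPM and 0.585 ± 0.164 TPM (log2 fold change -0.67, SD over 4 samples each throughout).

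The R-spondin system, whose secreted proteins raise Wnt receptor levels by way of Lgr receptors, had no called gene. Over all genes tested 7.67% were called. Of its 9 genes 5 were tested, and by the adjusted p alone 4 of these were lower and 0 higher, also after both scalings, where 16.3% of all genes tested were lower and 41.9% higher without scaling. Lgr5, its most abundant gene, measured 102 ± 10.3 TPM and 69.98 ± 6.81 TPM (SD, n = 4 each; log2 fold change -0.54, adjusted p = 6.5e-04 from limma). Rspo1, chosen after its values were seen, measured 72.6 ± 1.69 TPM and 39.3 ± 1.26 TPM (SD, n = 4 each; log2 fold change -0.87), and it was called after median-ratio scaling (-1.03). Lgr5 and Rnf43 count in this group and among the feedback targets. In the planar polarity branch 9 of 13 genes were tested and 0 were called, where 7.67% of all genes tested were called. By the adjusted p alone 4 of the 9 were higher and 1 lower (55.6%, near the 58.2% of all genes tested). The 1 lower gene was the member Ror2, already described above, as this list shares genes with the receptor lists. After median-ratio scaling 3 were higher and 2 lower, and after quantile normalization 3 were higher and 3 lower.

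Among the genes whose log2(TPM + 1) followed that of Wnt5a most closely over the 8 samples were Csf1 (Pearson r = 0.9997), a growth factor of macrophages, and Adgra2 (0.9996), an adhesion receptor. Their log2 fold changes were 1.46 and 1.34. For Sfrp2 they were Eif5b (0.993), a translation initiation factor, Rab28 (0.993), a small GTPase, and Mfsd11 (0.993). Their log2 fold changes of -0.35, -0.29 and -0.19 were much smaller than that of Sfrp2. These 8 points fall into the 2 groups, so the values mainly restate the difference between groups and carry no test.

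**Figure D4:**
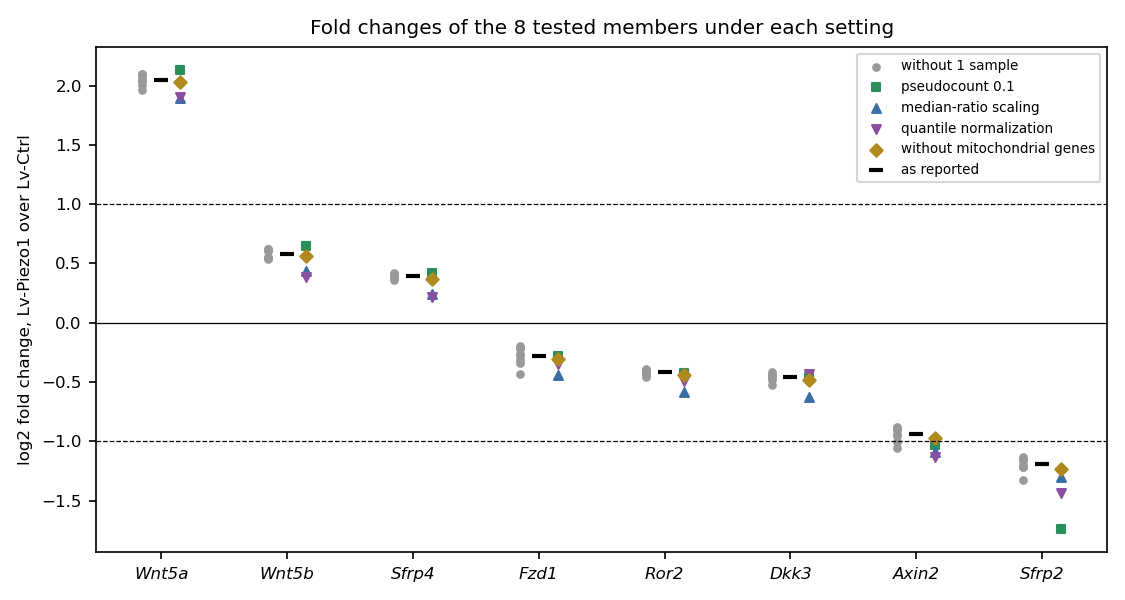
Log2 fold change (vertical axis, Lv-Piezo1 over Lv-Ctrl) of the 8 tested members as reported (black), without 1 sample at a time (grey) and under 4 other settings (coloured markers), with dashed lines at -1 and 1. No member changes sign, Wnt5a stays above 1 and Sfrp2 below -1 in each setting drawn, and Axin2 lies on both sides of -1.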

How the data were processed

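RNA-seq was measured in 8 samples of rat AFCs. Per the study's methods, the authors filtered reads, aligned them to a rat reference by HISAT2 and assembled transcripts by StringTie. TPM, the deposited unit, was rounded by the authors to 2 decimals, with 1 column per sample and a mean per group. The methods name FPKM and the DESeq package, and the submitters' processing notes list DESeq2 and mm10, a mouse build, although the gene identifiers are those of rat. The build and annotation used are not given in the sources used here. No model for counts was used.

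From the deposited TPM, log2(TPM + 1) of the 13103 genes that averaged 1 TPM or more was compared with limma 3.58.1 in R 4.3.3 (moderation with a trend, Benjamini-Hochberg adjustment over all genes tested, no block). The fit was tested on simulated data. Permutation tests were exact over 70 relabelings. The members and gene lists were chosen with earlier results of these data known. Named genes are the members, Piezo1, the called genes of the pathway list, the most abundant gene of each role, the 3 genes most correlated with the largest rise and fall, and the called or absent markers; others are marked, and 1 of the correlated genes is not reported here. The replicates are separate samples, and the study calls them biological repeats. Alternatives were another pseudocount, other filters, 2 scalings, leaving out mitochondrially encoded genes, no trend, a replicate block, no fold threshold and leaving out each sample.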

Additional observations from a re-analysis of the deposited data

Results flagged for a closer look

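Sfrp2 in replicate 4 labelled Lv-Piezo1 measured 1.68 TPM and stood apart from the other 3 samples of its group, its gap to the nearest of them being 0.885 of the range of the group. Chance flags about 1 in 20 groups of 4, and 1 of the 21 groups looked at (the members and Piezo1) was flagged. Without this sample the log2 fold change of Sfrp2 was -1.32 (adjusted p = 1.8e-05 from limma).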

How the results depend on the processing

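No member changed sign under the alternatives run, which gave no value for Dkk2 and none for Sfrp2 at a mean TPM of at least 5. With a pseudocount of 0.1 the difference of Sfrp1 was 1.40, that of Sfrp2 was -1.74 against -1.19, and Axin2 was called at -1.03. With it 7 other pathway genes were called, 4 of them higher (Frzb, Nkd1, Wif1 and Celsr2), against 2 and 1. With a mean TPM of at least 5, which leaves 9719 genes and drops Sfrp2, 628 genes were called, 372 of them higher, and 1 member. After median-ratio scaling Axin2 was called at -1.09 and Fzd1 passed the adjusted p at -0.44, and after quantile normalization Axin2 was called at -1.13. The median of all genes moved from 0.14 to -0.0052 and -0.0036 under these scalings, and of the called genes 64.1% were higher as reported and 52.1% and 48.8% under the scalings. Without the fold threshold 7626 genes passed, 5489 of them higher, with 7 members (3 higher) and 35 other pathway genes (28 higher). Leaving out 1 sample gave Axin2 -1.06 to -0.88, Fzd1 -0.44 to -0.20 and 1 to 2 other pathway genes called higher, the second being Nkd1 without replicate 2 labelled Lv-Piezo1. The cause of these moves was not tested, apart from the genes that a filter removes. The replicate number as a block gave 1004 called genes against 1005 and changed no call of a member. Deviations of same-numbered samples correlated at -0.0576 to -0.0124 over genes, and 0 of 8 samples correlated best with their own number, so the numbers were not taken as pairs. The study's methods count the experiments on the treated cells of an isolation as 1 independent repeat, so both groups may share isolations. The check of the numbers cannot show whether they do. Limits are the unknown depth, TPM near 0 for Dkk2 and Sfrp1, and 4 samples a group. Sfrp2 was also low in the Lv-Piezo1 group (mean 1.08 TPM), so the size of its fall depends on the pseudocount.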
